A study of Sus scrofa with 6 samples.

Results

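The genes described here are 9 enzymes of the glycolytic pathway (HK1, HK2, GPI, ALDOA, TPI1, PGK1, PGAM1, ENO1 and PKM) and lactate dehydrogenase A (LDHA), 10 of the 31908 gene IDs listed in the expression table. Of these, 8 were found by the gene symbol given in the table and 2, ALDOA and PKM, whose symbol was blank there, by the gene description. They were measured by RNA-seq in IPEC-J2 cells, a non-transformed epithelial cell line from the small intestine of the pig. The CON group held 3 libraries from cells given PBS, and the CDCA group held 3 libraries from cells given chenodeoxycholic acid (CDCA), a primary bile acid, at 50 μM according to the methods, since the labels give no dose. Both groups were collected after 24 h. All libraries came from 1 cell line grown in culture without the other cells of the gut, and although the study calls the libraries of a group biological replicates, the sources used here do not say whether they came from separate cultures, so the p-values measure only the spread between these libraries, which may be technical.

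Glycolysis breaks glucose down to pyruvate in the cytosol. Hexokinases trap glucose as a phosphate, an isomerase and aldolase turn it into triose phosphates, and the enzymes from triose phosphate isomerase to pyruvate kinase carry these to pyruvate with a net gain of ATP. Lactate dehydrogenase A then reduces pyruvate to lactate and regenerates the NAD+ that the pathway consumes. Many genes of this pathway are known targets of hypoxia-inducible factor (HIF) and of MYC in proliferating cells.

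The authors deposited TPM (transcripts per 1000000), a value scaled for transcript length and for the size of the library. No read counts per gene came with it, so no counting error can be given for a value. The listed TPM summed to between 351770 and 366073 per library, where a full library would sum to 1000000, and a gene's value here is the sum over its listed transcripts and can miss others. ENO1, PKM and ALDOA were listed at between 3.33 and 24.68 TPM, far below TPI1 or LDHA. The processing notes of the submitters name the mouse build mm10 without its role, whereas the rows carry pig gene IDs. The share of the listed TPM taken by the 13 mRNAs of the mitochondrial genome was 14.3% ± 0.640 in CON and 3.20% ± 0.282 in CDCA (SD, n = 3), which can move the scale of all other genes. On the full scale of 1000000 TPM, these mRNAs held 49477.5 to 55014.8 TPM in CON and 10528.9 to 12288.5 TPM in CDCA. Of 8 epithelial markers 7 were listed: EPCAM, KRT8, KRT18 and CLDN4 were tested, and CDH1, VIL1 and CLDN7 lay below a mean of 1 TPM. Their summed level was 624 to 648 TPM in CON and 1182 to 1322 TPM in CDCA, mostly through CLDN4 (log2 fold change 1.84, limma FDR 3.7e-06). Of the 4 tested, 3 were higher and 0 lower at an FDR under 0.05. The 12 markers of other cell types summed to 3.18 to 4.89 TPM in CON and 7.42 to 8.25 TPM in CDCA. Of these, 10 lay below a mean of 1 TPM, the leukocyte marker PTPRC was listed at no more than 0.01 TPM, and 2 were tested. CD68 had a mean of 0.0867 TPM in CON and 4.84 TPM in CDCA (log2 fold change 2.43, limma FDR 2.82e-05). PECAM1 had one of 1.92 and 1.22 TPM (limma FDR 0.0246). The FDR of PECAM1 was 0.05 or more without CON replicate 2, CON replicate 3, CDCA replicate 1 or CDCA replicate 2, and with no filter on low values. The part of the marker levels in the results below was not tested, and the enzymes are also given below with totals that leave out the mitochondrial mRNAs. In bulk RNA, fewer cells expressing a gene and less of its RNA per cell cannot be told apart.

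In CDCA, 9 of the 10 genes were lower than in CON. LDHA fell by 61.7%, HK2 by 67.5%, PGAM1 by 57.1% and TPI1 by 52.4%, whereas ALDOA did not pass the test and had a higher mean in CDCA. Genes were kept where they averaged 1 TPM or more, and of the 8708 that remained, tested by limma on log2(TPM + 1) with Benjamini-Hochberg adjustment (FDR), 23.9% were lower in CDCA at an FDR under 0.05 and 29.3% were higher, against 9 and 0 of the 10 enzymes, 1 of which (ALDOA) was higher at an unadjusted p of 0.0428. With a log2 fold change over 1 in size required as well, 3.90% of genes were called lower and 3.51% higher, against 4 (HK2, TPI1, PGAM1 and LDHA) and 0 of the enzymes. All CDCA libraries were below all CON libraries for 27.8% of all tested genes and for 9 of the 10 enzymes. The median log2 fold change was -0.73 over the enzymes and 0.05 over all tested genes, with quartiles of -0.28 and 0.36. All 10 enzymes passed the filter on low values.

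**Figure D1:**
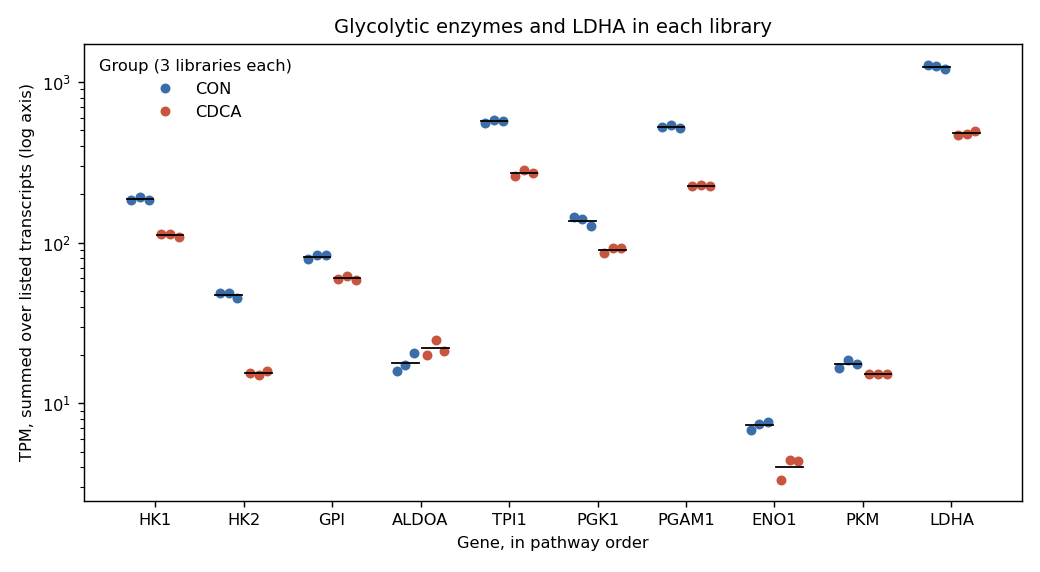
TPM of each gene in each of the 3 CON and 3 CDCA libraries on a log axis, genes in pathway order, with a black line at each group mean. The points of the groups are apart for every gene except ALDOA, and LDHA, TPI1 and PGAM1 are the most abundant in both groups.

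The hexokinases, which phosphorylate glucose and so commit it to the cell, were both lower in CDCA. HK2 (ENSSSCG00000008261), the inducible form of many growing cells, was at 48.46, 48.82 and 45.34 TPM in CON, against 15.35, 15.05 and 15.9 TPM in CDCA. The lowest CON library was far above the highest CDCA library. The mean fell from 47.5 ± 1.91 to 15.4 ± 0.431 TPM (SD, n = 3), a difference of -1.56 on the log2 scale (SE 0.05, limma FDR 3.7e-06), which was rank 104 of the 8708 tested genes counted from the largest fall. HK1 (ENSSSCG00000010253), the form found in most tissues, was at 183.97, 191.03 and 184.63 TPM in CON, against 113.26, 113.34 and 108.42 TPM in CDCA. HK1 remained the more abundant hexokinase in every library. Its mean fell from 187 ± 3.90 to 112 ± 2.82 TPM (SD, n = 3), a difference of -0.74 on the log2 scale (SE 0.04, limma FDR 1.67e-05).

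The ratio of HK2 to HK1 within a library does not depend on how libraries are scaled. It was 0.263, 0.256 and 0.246 in CON and 0.136, 0.133 and 0.147 in CDCA, so that HK2 fell further than HK1. The mean ratio in CDCA was 0.543 times that in CON, and the groups did not overlap (exact two-sided permutation test, p = 0.1, the smallest that 3 libraries against 3 can give).

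The next steps rearrange the hexose and split it. GPI (ENSSSCG00000002873), which converts glucose 6-phosphate to fructose 6-phosphate, was at 79.27, 83.38 and 83.34 TPM in CON, against 59.02, 62.19 and 58.58 TPM in CDCA. It was lower in all CDCA libraries by a modest amount, with a mean of 82.0 ± 2.36 TPM in CON and 59.9 ± 1.97 TPM in CDCA (SD, n = 3) and a difference of -0.45 on the log2 scale (SE 0.04, limma FDR 0.000213). ALDOA (ENSSSCG00000032556), the aldolase of muscle and most proliferating cells, was at 16.0, 17.23 and 20.54 TPM in CON, against 19.93, 24.68 and 21.22 TPM in CDCA. The groups overlapped. The log2 fold change of ALDOA was 0.28 (95% confidence interval 0.01 to 0.55, limma FDR 0.0747), and without CON replicate 3, the highest CON library, it was 0.38 with an FDR of 0.0257. TPI1 (ENSSSCG00000000685), which interconverts the triose phosphates, was at 558.4, 583.55 and 572.01 TPM in CON, against 260.71, 283.7 and 271.42 TPM in CDCA. Its level in CDCA was 0.476 times that in CON, from 571 ± 12.6 to 272 ± 11.5 TPM (SD, n = 3), with a difference of -1.07 on the log2 scale (SE 0.04, limma FDR 7.8e-06).

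The enzymes that carry triose phosphates to pyruvate fell by unequal amounts. PGK1 (ENSSSCG00000012440), the first ATP-forming kinase of the pathway, was at 144.92, 139.66 and 126.41 TPM in CON, against 86.02, 92.61 and 92.13 TPM in CDCA. Its mean fell by 34.1%, from 137 ± 9.54 to 90.3 ± 3.67 TPM (SD, n = 3), with a difference of -0.60 on the log2 scale (SE 0.06, limma FDR 0.00029). PGAM1 (ENSSSCG00000010517), the phosphoglycerate mutase of most tissues, was at 521.39, 540.16 and 516.75 TPM in CON, against 224.63, 227.02 and 225.82 TPM in CDCA. The CDCA libraries lay within a few TPM of each other, and the mean went from 526 ± 12.4 to 226 ± 1.20 TPM (SD, n = 3), a difference of -1.22 on the log2 scale (SE 0.03, limma FDR 2.45e-06). ENO1 (ENSSSCG00000022343), the enolase of most tissues, was at 6.85, 7.44 and 7.65 TPM in CON, against 3.33, 4.43 and 4.35 TPM in CDCA. The groups were apart, with means of 7.31 ± 0.415 and 4.04 ± 0.613 TPM (SD, n = 3). The log2 fold change of ENO1 was -0.73 (SE 0.11) and had a wider interval than those of the abundant enzymes, from -0.99 to -0.47 (limma FDR 0.00154).

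PKM (ENSSSCG00000001930), the pyruvate kinase of muscle and proliferating cells, showed the smallest fall. It was at 16.66, 18.71 and 17.68 TPM in CON, against 15.14, 15.16 and 15.17 TPM in CDCA. The groups did not overlap, but the means of 17.7 ± 1.02 and 15.2 ± 0.0153 TPM (SD, n = 3) differed by 14.3%, with a difference of -0.21 on the log2 scale (SE 0.06, limma FDR 0.0195). With 1 library left out, the limma FDR of PKM rose past 0.05 in 4 of 6 fits. The log2 fold change was -0.17 without CON replicate 2 (limma FDR 0.0662), and -0.21 without CDCA replicate 1 (FDR 0.0576), CDCA replicate 2 (FDR 0.0512) or CDCA replicate 3 (FDR 0.0524). With the most abundant listed transcript of PKM in place of the sum over transcripts, the log2 fold change was -0.09 and the FDR was 0.278.

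LDHA (ENSSSCG00000013366) was the most abundant of the 10 genes in every library. It was at 1280.71, 1254.07 and 1210.02 TPM in CON, against 466.54, 472.86 and 495.71 TPM in CDCA. No other of the 10 genes differed by as many TPM, and all CDCA libraries were below all CON libraries. The mean fell from 1248 ± 35.7 to 478 ± 15.3 TPM (SD, n = 3), a difference of -1.38 on the log2 scale (SE 0.04, 95% confidence interval -1.48 to -1.29, limma FDR 2.92e-06), at rank 166 of the 8708 tested genes.

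**Figure D2:**
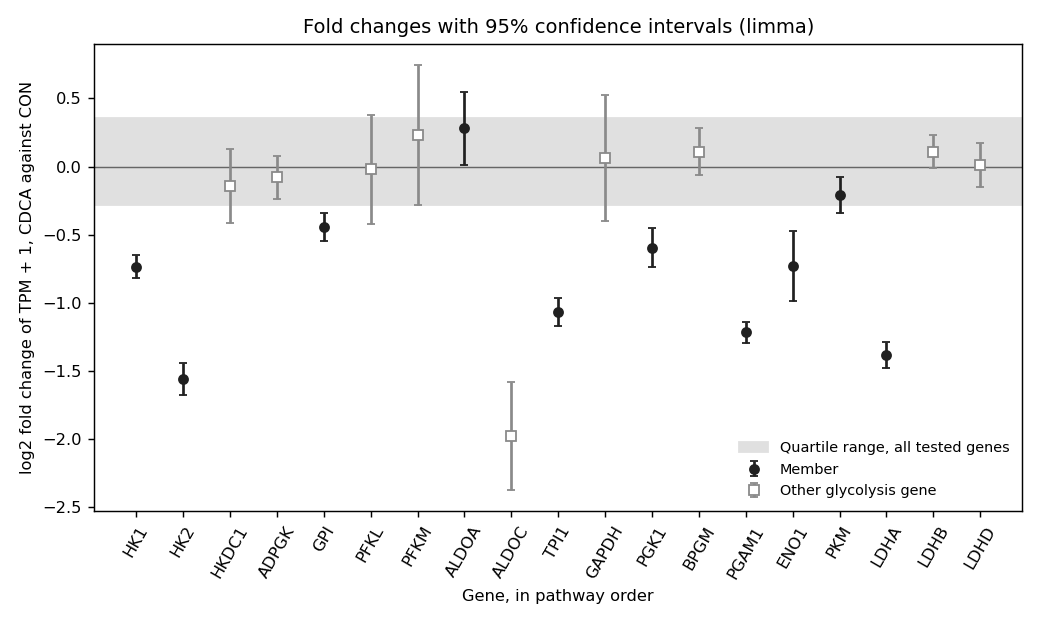
Log2 fold change of TPM + 1 between CDCA and CON from limma with its 95% confidence interval, for the 10 genes (filled circles) and the other tested glycolysis genes (open squares) in pathway order, with the quartile range of all tested genes as a grey band. All intervals of the 10 genes lie below 0 except that of ALDOA (0.01 to 0.55), and of the other genes only the interval of ALDOC does.

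TPM is scaled for length, but the order of levels holds for the listed transcripts and not for transcripts that the table may miss. In CON the order of the means was LDHA, TPI1, PGAM1, HK1, PGK1, GPI, HK2, ALDOA, PKM and ENO1, and the libraries of ALDOA and PKM overlapped. In CDCA the first 6 genes kept this order, and HK2 came after ALDOA, with the libraries of HK2 and PKM overlapping. The summed TPM of the 10 genes was 2842 ± 51.5 in CON and 1295 ± 26.6 in CDCA (SD, n = 3), a ratio of 0.456 given here as a description with no test. LDHA made up 43.9% ± 0.787 of this sum in CON and 37.0% ± 0.906 in CDCA. Without LDHA the sum went from 1593 ± 31.7 to 816 ± 20.6 TPM, a ratio of 0.512. The share of TPI1 in the sum was 20.1% in CON and 21.0% in CDCA, that of PGAM1 was 18.5% and 17.4%, and that of HK1 was 6.56% and 8.63%.

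The 10 genes had 37 listed transcripts, of which 6 were at 0 in all libraries and 18 averaged 1 TPM or more. Of these 18, 15 had every CDCA library below every CON library, none had the reverse, and 3 overlapped, beside 24.3% and 30.1% of all 12204 listed transcripts at this level. Those that overlapped were the leading transcripts of ALDOA and PKM and a minor transcript of PGK1. The table gives no transcript IDs, so transcripts are described by their order of abundance. The leading LDHA transcript was at 785.84, 769.28 and 765.73 TPM in CON, against 289.6, 290.44 and 303.81 TPM in CDCA, a ratio of 0.381. The second LDHA transcript had a ratio of 0.387, so both fell by a similar factor. The pair of abundant TPI1 transcripts had ratios of 0.469 and 0.487. The transcripts of PKM were less alike: the leading one was at 10.56, 11.82 and 11.49 TPM in CON, against 10.31, 10.52 and 10.73 TPM in CDCA, a ratio of 0.932, and the second had a ratio of 0.643 without overlap. For ENO1 the ratios were 0.645 and 0.361. How transcripts that share most of their exons were separated rests on the authors' quantification, as does the split of reads between a gene such as GAPDH and its near-identical processed copies.

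Other enzymes act at the same steps, and the list of 21 further glycolysis genes had 9 tested members. At an FDR under 0.05, 1 of these was lower and none was higher by limma, with an unadjusted p under 0.05 for the same gene alone, and their median log2 fold change was 0.01. With totals without the mtDNA-encoded genes, 2 were lower, none was higher and the median was -0.13, and with the listed TPM rescaled to 1000000, 1 was lower and 2 were higher of 14 tested. The gene that fell was ALDOC, the aldolase known from brain, at 8.12, 8.03 and 6.95 TPM in CON and 0.72, 1.45 and 1.54 TPM in CDCA. It was lower in all CDCA libraries, with a difference of -1.98 on the log2 scale (SE 0.16, limma FDR 0.000122), while the more abundant ALDOA was not. HKDC1, a further hexokinase-like gene, had a log2 fold change of -0.14 (limma FDR 0.326), and PFKM, a subunit of the phosphofructokinase between GPI and aldolase, had one of 0.23 (limma FDR 0.401, and between 0.078 without CON replicate 3 and 0.42 without CON replicate 1 on the log2 scale), both with overlapping groups. GAPDH, LDHB, PDK1, HIF1A, MYC, PYGB, PYGL, PYGM, GYS1 and VHL, given here and below, were chosen after their values were seen. GAPDH, the dehydrogenase between TPI1 and PGK1, was at 183.93, 241.91 and 313.82 TPM in CON and 282.99, 257.41 and 218.23 TPM in CDCA. Its libraries were widely spread and overlapping, so that its log2 fold change of 0.06 had an interval from -0.40 to 0.53 (limma FDR 0.809), and its sign turned without CON replicate 1 (-0.13), without CDCA replicate 1 (-0.02) and with totals without the mtDNA-encoded genes (-0.09).

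LDHB encodes the lactate dehydrogenase subunit typical of heart. The table leaves its abundant gene ID (ENSSSCG00000000576) unnamed, and it was found through the accession in its description, whereas the ID that bears the symbol LDHB was listed at no more than 0.26 TPM. At the former ID it was at 461.86, 450.97 and 417.22 TPM in CON and 465.51, 498.12 and 469.07 TPM in CDCA. The log2 fold change of LDHB was 0.11 (95% confidence interval -0.01 to 0.23, limma FDR 0.116), and it was -0.05 with totals without the mtDNA-encoded genes and passed the test after the listed TPM were rescaled to 1000000 (0.13, FDR 0.0357). LDHA was 2.77, 2.78 and 2.90 times as abundant as LDHB in the CON libraries and 1.00, 0.949 and 1.06 times in the CDCA libraries. The ratio was added after the values were seen and is given as a description with no test.

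The lactate transporters moved in opposite directions. SLC16A3, which encodes MCT4 and exports lactate from glycolytic cells, was at 81.96, 97.82 and 91.69 TPM in CON and 39.18, 43.45 and 42.99 TPM in CDCA, a difference of -1.09 on the log2 scale (SE 0.08, limma FDR 5.79e-05). SLC16A1, which encodes MCT1 and carries lactate and other monocarboxylates either way, was at 21.02, 22.58 and 19.27 TPM in CON and 34.32, 35.37 and 35.12 TPM in CDCA, a difference of 0.71 on the log2 scale (SE 0.06, limma FDR 0.000154). SLC16A3 was still the more abundant of the pair in every CDCA library. The ratio of SLC16A3 to SLC16A1 was 4.33 ± 0.430 in CON and 1.20 ± 0.0489 in CDCA (SD, n = 3), likewise a description added after the values were seen.

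**Figure D3:**
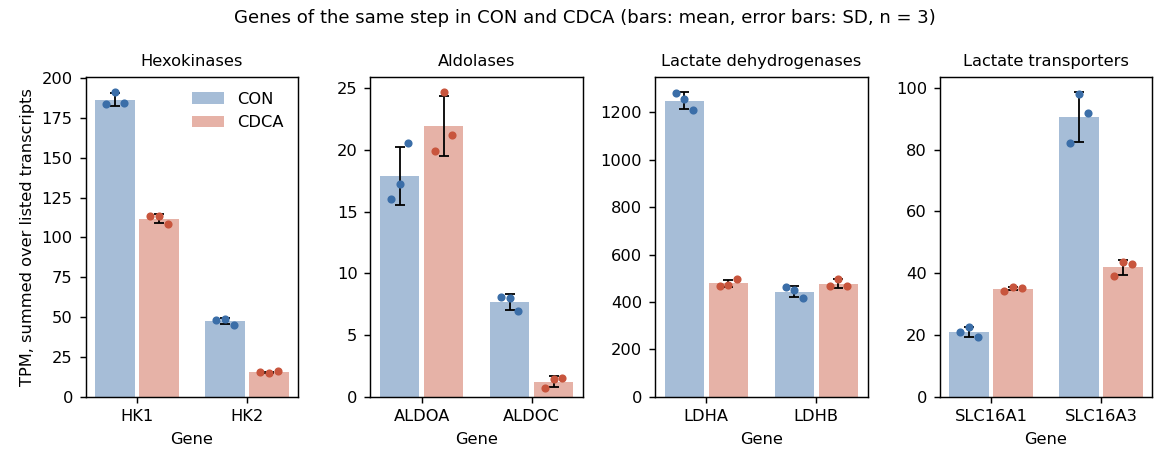
TPM of hexokinases, aldolases, lactate dehydrogenases and lactate transporters in CON and CDCA (bars, mean; error bars, SD; points, the 3 libraries), each panel with its own axis from 0. LDHA is 2.77 to 2.90 times LDHB in CON and 0.949 to 1.06 times in CDCA, and SLC16A1 is the gene that rises past the test.

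Since the mitochondrial share differed between the groups, the members were also fitted with totals that leave out the mtDNA-encoded genes. This moved the median log2 fold change of all genes by -0.13, from 0.05 to -0.08, and turned the split at an FDR under 0.05 from 2085 lower and 2550 higher genes to 2770 lower and 1751 higher. Over the 10 enzymes the median log2 fold change went from -0.73 to -0.87, and 9 were again lower and none higher. LDHA then had a log2 fold change of -1.54, HK2 of -1.71, PKM of -0.35 and ALDOA of 0.13 (limma FDR 0.337). Relative to the median of all genes, LDHA stood at -1.43 before this change and at -1.45 after it. With each library scaled to the same median ratio, the median over the enzymes was -0.78.

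**Figure D4:**
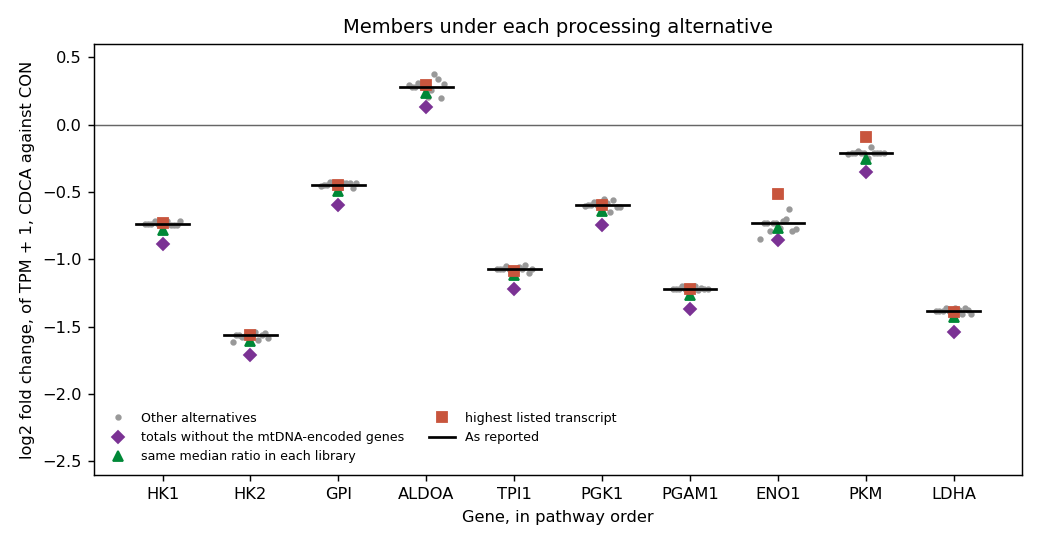
Log2 fold change of each of the 10 genes under the 15 alternative settings, with the reported value as a black line and 3 settings marked by shape and colour. No gene changes sign, and PKM comes closest to 0 (-0.09) with its most abundant listed transcript.

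Around the pathway, genes with other roles were counted in the same fit, in lists that are a description and carry no test of their own; means are given ± SD over 3 libraries. The counts of lower and higher genes stand beside 23.9% and 29.3% over all tested genes. With totals without the mtDNA-encoded genes, the lower and higher counts given below became 4 and 1 for the transporters, 9 and 0 for pyruvate, 6 and 3 for gluconeogenesis and sugar entry, 6 and 2 for the HIF targets and 2 and 1 for the MYC axis, beside 31.9% and 20.1% over all genes under that scaling. Of 3 tested genes that set fructose 2,6-bisphosphate, the activator of phosphofructokinase, PFKFB2 rose from 7.62 ± 0.161 to 9.89 ± 0.550 TPM (log2 fold change 0.34, limma FDR 0.00444). PFKFB4 had a log2 fold change of 0.31 (limma FDR 0.132), which was 0.17 without CON replicate 2. TIGAR had one of -0.27 (limma FDR 0.339), which was -0.50 with an FDR of 0.0361 without CON replicate 1, -0.13 without CON replicate 2, -0.18 without CON replicate 3 and -0.14 without CDCA replicate 1. Of 7 tested sugar and lactate transporters, 4 were lower and 2 higher (1 higher without CON replicate 1, CON replicate 2, CDCA replicate 1 or CDCA replicate 3). The fructose transporter SLC2A5 fell from 2.92 ± 0.394 to 0.397 ± 0.0379 TPM (log2 fold change -1.49, limma FDR 0.000105), and the glucose transporter SLC2A1 was not matched by symbol and is not analysed here.

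Of 13 tested genes that act on pyruvate and its entry into the mitochondrion, or in the malate-aspartate shuttle, 9 were lower and 2 higher. The shuttle genes MDH1 and GOT2 were among the lower ones. The log2 fold changes of the list had a median of -0.28. The higher count was 1 without CON replicate 1, CON replicate 3, CDCA replicate 1 or CDCA replicate 2. With the most abundant listed transcript, 6 were lower and 1 higher, beside 22.4% and 26.5% over all genes under that setting. DLAT, the acetyltransferase subunit of the pyruvate dehydrogenase complex, had a log2 fold change of -0.73 (limma FDR 0.00893). The phosphatases that activate the complex, PDP1 and PDP2, had log2 fold changes of -0.53 (limma FDR 0.00264) and -0.58 (limma FDR 0.000531), and PDK1, a kinase that inhibits it, had one of -0.34 (limma FDR 0.00543). With the most abundant listed transcript, PDP2 had an FDR of 0.109 and PDK1 one of 0.0584. Of 13 tested genes of gluconeogenesis, glycogen and sugar entry, 5 were lower and 6 higher, and the lower count was 3 without CON replicate 2 or CON replicate 3. PCK2, the mitochondrial enzyme that makes phosphoenolpyruvate from oxaloacetate, was at 1.23, 0.77 and 0.90 TPM in CON and 6.51, 3.28 and 8.79 TPM in CDCA. It was higher in all CDCA libraries, with a wide spread among them (log2 fold change 1.80, SE 0.29, limma FDR 0.00242). The glycogen branching enzyme GBE1 rose by 0.73 on the log2 scale (limma FDR 0.000201), and UGP2, which makes the glucose donor for glycogen, by 0.56 (limma FDR 0.0192, 0.0524 without CON replicate 3 and 0.0763 with its most abundant listed transcript). Other glycogen genes of this list went the other way. The phosphorylase PYGB had a log2 fold change of -0.53 (limma FDR 0.000145), while PYGL and PYGM did not pass the test. Glycogen synthase GYS1 missed the filter on low values and was not tested, with 1.45 ± 0.379 TPM in CON and 0.470 ± 0.123 TPM in CDCA, without overlap.

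Glycolytic genes are known HIF and MYC targets, and the factors of these pathways were counted for that reason. Of 6 tested HIF pathway factors 1 was lower and 4 were higher, and with totals without the mtDNA-encoded genes 2 were lower and 2 higher. The list pools HIF subunits with factors that oppose HIF, and VHL, one of the latter, was among the 4 (log2 fold change 0.37, limma FDR 0.0137). EGLN3, an oxygen-sensing prolyl hydroxylase that is itself a HIF target, fell from 10.1 ± 0.300 to 3.52 ± 0.440 TPM (log2 fold change -1.30, limma FDR 5.72e-05). EPAS1, which encodes the HIF-2α subunit, rose from 1.88 ± 0.159 to 4.88 ± 0.599 TPM (log2 fold change 1.03, limma FDR 0.000306), and ARNT, the common partner of the HIF-α subunits, rose by 0.51 on the log2 scale (limma FDR 0.0014), though by 0.088 with an FDR of 0.383 with its most abundant listed transcript. HIF1A had a log2 fold change of 0.32 (limma FDR 0.0172), with an FDR of 0.176 with totals without the mtDNA-encoded genes and of 0.0537 without CON replicate 3, 0.0553 without CDCA replicate 1 and 0.0566 without CDCA replicate 3.

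Of 12 tested HIF targets outside glycolysis, 4 were lower and 3 higher, shares near those over all tested genes. BNIP3, a mitophagy receptor, was at 9.45, 9.23 and 9.14 TPM in CON and 3.03, 3.18 and 2.58 TPM in CDCA (log2 fold change -1.39, limma FDR 3.28e-05). NDRG1, a stress-responsive gene, fell from 384 ± 14.1 to 195 ± 4.44 TPM (log2 fold change -0.97, limma FDR 8.94e-06). VEGFA, the angiogenic growth factor, went the other way, at 15.85, 20.79 and 20.39 TPM in CON and 49.53, 53.80 and 46.32 TPM in CDCA (log2 fold change 1.35, limma FDR 0.000111). BNIP3, NDRG1 and VEGFA each kept their groups apart.

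In the MYC axis, 2 of 6 tested genes were lower and 3 higher, and the lower count was 1 without CON replicate 2. MYC was at 84.14, 89.13 and 91.01 TPM in CON and 78.28, 77.56 and 79.34 TPM in CDCA, a small difference with a log2 fold change of -0.17 (limma FDR 0.0143, 0.0524 without CON replicate 2 and 0.214 with its most abundant listed transcript). MNT, which competes with MYC for its partner MAX, rose from 4.07 ± 0.12 to 6.75 ± 0.17 TPM (log2 fold change 0.61, limma FDR 0.000378), and MLX, the partner of the glucose-sensing Mondo proteins, had a log2 fold change of -0.55 (limma FDR 0.00325). MXD1, a further MAX partner, was near the filter on low values, at 0.84, 1.54 and 0.24 TPM in CON and 2.36, 1.80 and 4.96 TPM in CDCA. Its log2 fold change of 1.09 had an FDR of 0.0389 by limma, and of 0.0826 without CON replicate 1, 0.106 without CON replicate 3, 0.0651 without CDCA replicate 1, 0.0947 without CDCA replicate 3, 0.0539 with totals without the mtDNA-encoded genes, 0.098 with no filter on low values and 0.316 with its most abundant listed transcript.

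**Figure D5:**
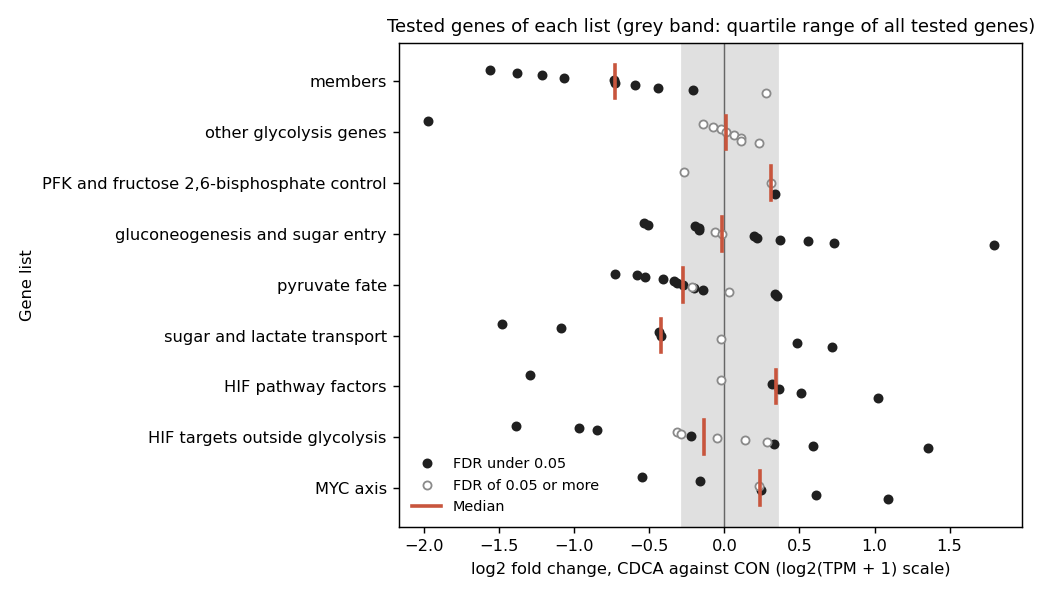
Log2 fold change of TPM + 1 between CDCA and CON for every tested gene of each list of enzymes, transporters and pathway factors, the marker lists left out (points; filled, FDR under 0.05; open, not), with the list median as a red line and the quartile range of all tested genes as a grey band. The 10 glycolytic genes, named members on the axis, have a median of -0.73, and the other lists shown have medians between -0.42 and 0.34.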

How the data were processed

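RNA from 3 CON and 3 CDCA libraries of IPEC-J2 cells was sequenced by the authors, who quantified transcripts with RSEM and deposited TPM for 63041 transcripts of 31908 pig gene IDs. The submitters' processing notes name Bowtie 0.12.2 and the build mm10. The aligner settings and annotation are not given in the sources used here, and the reads per library that the study reports were not used. The deposited values carry no read counts.

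Here, TPM were summed per gene ID. Symbols came from the table (16719 IDs) or from the Ensembl and RefSeq names (3146 IDs). The groups were compared by limma 3.58.1 (trend, R 4.3.3) on log2(TPM + 1) for genes averaging 1 TPM or more, with Benjamini-Hochberg adjustment; fold changes on this scale understate those of low genes. A gene was called at an FDR under 0.05 and a log2 fold change over 1 in size. The authors' own test was edgeR, which takes counts and was not run here. The ratio of HK2 to HK1 within libraries was tested by exact permutation, two-sided (Python 3.11.15, SciPy 1.17.1). The steps were tested on simulated data. Beside the 10 members, the text names every called gene and the 3 largest changes of each list of related genes, and genes chosen later are marked as such. The members and lists were chosen with earlier results of these data known. The alternatives were another pseudocount (0.1 TPM), other filters on low values, 3 other scalings, the highest listed transcript, the replicate number as a block, no trend, and each library left out in turn. Promoter and protein sequences were not analysed here.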

Additional observations from a re-analysis of the deposited data

How the results depend on the processing

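The 10 genes kept their direction under all 15 alternatives, and 144 of the 150 values kept their side of an FDR of 0.05, the exceptions being 5 of PKM and 1 of ALDOA. The 4 calls of enzymes lower in CDCA held throughout, and between 8 and 10 enzymes had an FDR under 0.05 with 1 library left out. Over all genes, 306 were called higher in CDCA and 340 lower, against 509 and 505 with a pseudocount of 0.1 TPM, 197 and 238 with a mean of at least 5 TPM, 523 and 481 with the listed TPM rescaled to 1000000, and 221 and 449 with totals without the mtDNA-encoded genes; with 1 library left out, 305 to 327 were called higher and 337 to 359 lower. The ratio of the summed TPM of the 10 genes was 0.409 with totals without the mtDNA-encoded genes, 0.441 with the same median ratio in each library, and 0.451 to 0.461 with 1 library left out. The ratio of HK2 to HK1 in CDCA was 0.526 to 0.554 times that in CON with 1 library left out. The log2 fold change of GAPDH was -0.13 to 0.25 with 1 library left out and -0.091 with totals without the mtDNA-encoded genes, where that of LDHB was -0.046; neither passed the test in those fits, and the cause was not tested.

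Libraries with the same replicate number did not deviate together (r of -0.04, -0.09 and -0.05 between CON and CDCA). With 3 libraries per group this cannot settle whether they were prepared in pairs, and the sources used here do not say. With a replicate block, 343 genes were called lower and 309 higher, 9 enzymes were lower at an FDR under 0.05 and 4 were called. UGP2 and MXD1 then had an FDR of 0.0525 and 0.0904, and the marker PECAM1 no longer passed an FDR under 0.05.

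Without read counts per gene, no counting error can be given for the low values of ENO1, PKM and ALDOA.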
